A study of Mus musculus with 22 samples.

Results

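The genes described here, 40 of those counted, are the core genes of the cell cycle and of DNA replication, of which 21 act at the G1/S transition and 19 in G2 and mitosis (G2/M). They were chosen by name, and all 40 symbols matched a single gene among the 78298 of the deposited count tables. The libraries are polyadenylated RNA of splenic natural killer (NK) cells from female or male mouse donors, of the mouse pancreatic cancer line Panc02, and of Panc02 allografts. NK cells were sequenced fresh and untreated (4 libraries), after 24 h with interleukin-2 (IL-2) alone, labelled NK only (4), or after 24 h with IL-2 together with Panc02, labelled co-culture (4). Each of these conditions has female samples 1 and 2 and male samples 4 and 5. Panc02 in culture has 2 libraries, and the allografts are tumours 1 to 4 from female hosts and 5 to 8 from male hosts. The labels give no strain, age, genotype or deletion, no separation of the cells in co-culture and no sex for Panc02, and they do not say which samples come from separate animals. The tests therefore rest on the spread between samples of a group, some of which is possibly technical.

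Cells leave G1 when D-type cyclins with Cdk4 and Cdk6, then E-type cyclins with Cdk2, inactivate the retinoblastoma protein and release E2F factors. E2F targets include the MCM helicase that unwinds origins, the enzymes that make nucleotides, and the clamp PCNA. Genes of G2 and mitosis, such as cyclin B, Cdk1 and the spindle kinases, come up later under the MuvB complex with B-Myb and FoxM1. MuvB binds the CHR element in their promoters, many of which also hold CCAAT boxes. Resting NK cells cycle little, and IL-2 and IL-15 are known to drive their division. Levels below are CPM values, in which each library's gene counts are brought to a common total, and rose, fell or differed is written only where the Benjamini-Hochberg adjusted p of edgeR's quasi-likelihood test over all genes tested was under 0.05.

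The promoters of the 2 phases differ in the letters around the start site, which is why 5 are shown. Promoters came from RefSeq (GRCm38.p6), each 250 bases before to 50 after the start, for 30 of the 40 members. Letters were searched on both strands: CHR as TTTGAA or TTCGAA, the CCAAT box as CCAAT, and E2F as TTTCCCGC, TTTCGCGC, TTTGCCGC or TTTGGCGC. E2F letters on opposite strands can overlap each other. CHR letters stood in 11 of 14 G2/M promoters and 3 of 16 G1/S promoters, against 21.7% of all 27025 genes with a promoter. CCAAT stood in 13 of 14 and 11 of 16, against 41.1%, and E2F letters in 1 of 14 and 6 of 16, against 2.6%. Some matches lie only after the start. These are the CHR letters of Plk1 (31), Aurka (33), Bub1 (15) and Cenpf (3), and the E2F letters of Mcm3 (20 and 39). The 150 bases up to the start site are printed 5′ to 3′ along the gene, with the matched letters of either strand in capitals. Cdc6, which loads the helicase at origins, is at chr11:98908001-98908150 on the plus strand. Mcm6, a helicase subunit, is at chr1:128359706-128359855 on the minus strand. The mitotic kinase gene Cdk1 is at chr10:69352913-69353062, Top2a, for the topoisomerase that untangles sister DNA, at chr11:99024190-99024339, and Cdc20, the activator of the anaphase-promoting complex, at chr4:118437344-118437493, all on the minus strand. These genes were picked after their levels were seen.
Cdc6: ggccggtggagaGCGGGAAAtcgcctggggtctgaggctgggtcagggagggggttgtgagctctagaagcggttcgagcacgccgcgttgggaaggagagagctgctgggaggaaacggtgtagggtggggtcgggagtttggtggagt
Mcm6: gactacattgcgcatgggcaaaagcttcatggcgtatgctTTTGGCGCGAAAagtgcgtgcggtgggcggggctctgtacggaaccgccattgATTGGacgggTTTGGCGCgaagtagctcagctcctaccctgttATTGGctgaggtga
Cdk1: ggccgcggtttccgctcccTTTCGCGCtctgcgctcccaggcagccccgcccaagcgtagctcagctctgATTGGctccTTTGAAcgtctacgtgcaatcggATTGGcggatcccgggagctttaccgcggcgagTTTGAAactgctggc
Top2a: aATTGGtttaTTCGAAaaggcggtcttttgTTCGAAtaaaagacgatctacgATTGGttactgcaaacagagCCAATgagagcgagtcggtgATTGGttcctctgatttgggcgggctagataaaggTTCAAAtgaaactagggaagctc
Cdc20: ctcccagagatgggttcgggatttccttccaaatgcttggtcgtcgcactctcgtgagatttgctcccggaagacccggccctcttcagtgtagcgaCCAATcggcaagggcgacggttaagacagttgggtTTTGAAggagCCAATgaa
Cdc6 and Mcm6 carry E2F letters and no CHR letters in this stretch, at -138 for Cdc6 and at -110, -106 and -47 for Mcm6, the first 2 of which overlap. The G2/M promoters shown carry CHR letters, at -71 and -15 in Cdk1, at -140, -120 and -23 in Top2a and at -18 in Cdc20, each with CCAAT letters within the same window. The split is not clean, since Cdk1 also carries E2F letters, at -131, and Mcm6 carries CCAAT letters, at -57 and -14. A match of letters is a description of the sequence and no evidence of binding.

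Fresh NK cells held cell cycle RNA of both phases, and NK only cells held less RNA of both, the fall being larger in the G2/M sum. Summed over the 19 G2/M genes, fresh NK cells held 999, 1073, 1465 and 1370 CPM (female 1, female 2, male 4, male 5, the order used for NK conditions throughout). NK only cells held 284, 167, 252 and 226 CPM, which is 13.6% to 23.2% of the fresh mean. The 21 G1/S genes summed to 2866, 3032, 3376 and 3289 CPM in fresh cells and to 2480, 2261, 2494 and 2318 CPM after culture, 72.0% to 79.4% of the fresh mean. The cyclin genes Ccnd2 and Ccnd3, neither of which fell, made up 33.5% to 37.6% of the G1/S sum in fresh cells and 54.5% to 61.7% after culture. The other 19 G1/S genes were at 42.3% to 55.2% of their fresh mean. Co-cultures and cultured Panc02 stood far above both, at 4339 to 4611 and 4574 to 4600 CPM for G2/M and 5213 to 5262 and 5420 to 5442 CPM for G1/S. Allografts overlapped fresh cells in G2/M, at 735 to 1713 CPM, and had the lowest G1/S sums, 1432 to 2158 CPM, below every NK library. The ratio of the G2/M to the G1/S sum was 0.349 to 0.434 in fresh cells, 0.0739 to 0.115 after culture, 0.844 and 0.845 in Panc02 and 0.513 to 0.794 in allografts. In such bulk libraries, fewer cells of a type and less RNA per cell cannot be told apart.

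**Figure D1:**
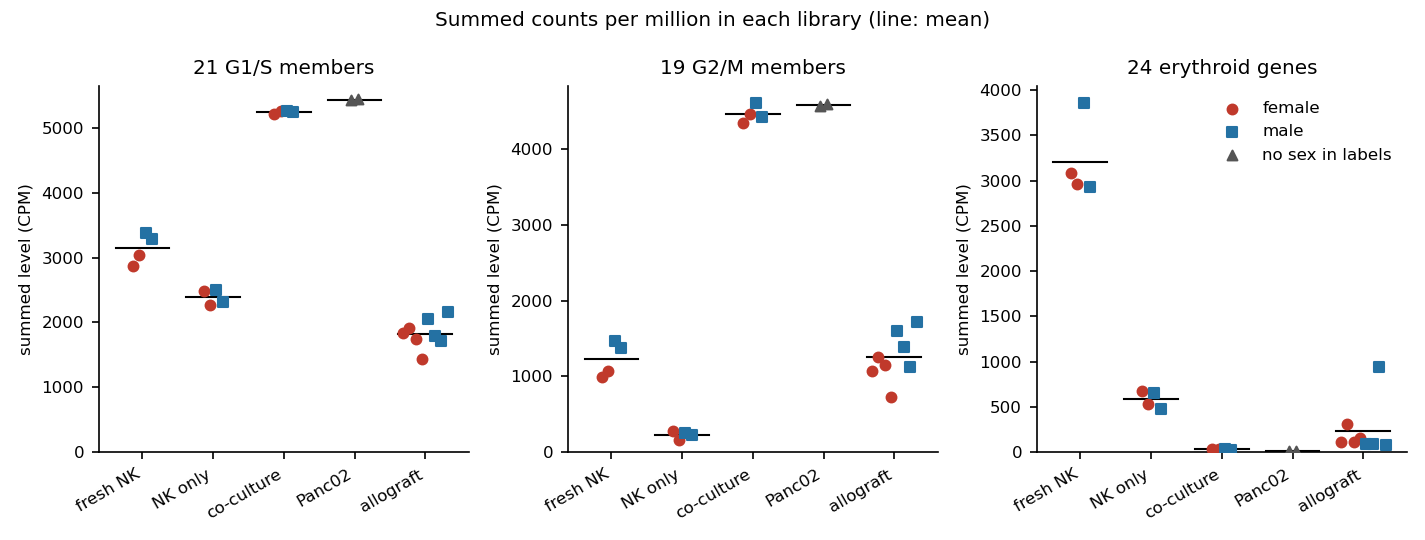
Summed CPM (vertical axes from 0) of the 21 G1/S members, the 19 G2/M members and 24 erythroid genes in each of the 22 libraries, by condition. Points are libraries, coloured by the sex of the NK donor or tumour host, and lines are means. The 4 NK only libraries hold 167 to 284 CPM of G2/M RNA, all under the 999 to 1465 CPM of fresh cells.

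Library totals ran from 13025549 to 46842646 counts. NK marker genes summed to 11552 to 12255 CPM in fresh cells and 13456 to 14857 CPM in NK only cells. In co-cultures they summed to 342 to 686 CPM, or 2.38% to 4.77% of the NK only mean, beside 95.3% to 96.8% of the epithelial marker level of cultured Panc02, so co-culture values are mostly those of Panc02 RNA. The sorted fresh cells also held erythroid genes (2925 to 3854 CPM in sum), megakaryocyte genes (250 to 461 CPM) and neutrophil precursor genes (24.9 to 518 CPM). The dendritic list summed to 468 to 631 CPM there. The B and plasma cell list summed to 35.4 to 105 CPM, the macrophage list to 27.3 to 81.6 CPM and the T cell list to 14.7 to 24.1 CPM. Allografts held fibroblast genes at 7270 to 23346 CPM, macrophage genes at 3262 to 6771 CPM and skeletal muscle genes at 599 to 29496 CPM, the muscle sum being highest in tumours 2, 4 and 7.

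After 24 h with IL-2, 38 of the 40 members were lower than in fresh NK cells, 1 was higher and 1 did not pass the test. The background in this comparison was 21.1% of 21414 genes lower and 22.1% higher. All 19 G2/M members fell, with no overlap between the 4 fresh and the 4 cultured libraries for any of them. How many of all genes lacked such overlap was not counted. Of the 21 G1/S members 19 fell. The median log2 change was -2.37 for the G2/M members and -1.31 for the G1/S members, against 0.01 over all genes tested.

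Mki67 (ENSMUSG00000031004, chromosome 7, 135291513 to 135318090, GRCm39), which encodes the proliferation antigen Ki-67, stood at 274, 263, 356 and 353 CPM in fresh cells. After culture it was at 55.2, 27.1, 49.2 and 41.4 CPM. Every cultured library was below every fresh library, a log2 change of -2.76 ± 0.20 (SE, adjusted p = 2.49e-05, edgeR). Top2a was at 212, 203, 239 and 222 CPM fresh and at 67.3, 36.0, 59.6 and 55.0 CPM cultured. Here too the groups were apart (-1.92 ± 0.17, adjusted p = 3.75e-05, edgeR). Mki67 had the highest mean level of the G2/M members in fresh cells (311 CPM) and Top2a in culture (54.5 CPM), where 14 of the 19 were under 10 CPM on average.

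The mitotic kinases, their cyclins and the other G2/M genes were 2.55-fold (Aurka) to 8.47-fold (Ccnb1) lower after culture. Ccnb1, the cyclin B1 that activates Cdk1 at entry into mitosis, went from 18.9, 34.3, 52.2 and 42.2 CPM to 4.65, 2.68, 4.35 and 4.29 CPM. Cdk1 itself was at 27.7, 31.8, 45.3 and 44.3 CPM fresh and at 9.37, 6.28, 9.33 and 9.42 CPM cultured. Its log2 change was -2.02 ± 0.09. Plk1, a kinase needed for spindle assembly and cytokinesis, went from 31.8, 38.4, 51.6 and 47.5 CPM to 10.5, 7.14, 7.67 and 7.24 CPM. Kif20a, a kinesin of the central spindle, had the smallest p of the group (adjusted p = 2.18e-13, edgeR), at 26.4, 32.0, 50.5 and 48.3 CPM against 6.70, 5.84, 7.02 and 8.08 CPM. The checkpoint kinase gene Bub1b went from 34.9, 40.2, 61.1 and 59.1 CPM to 14.1, 12.8, 13.8 and 13.1 CPM.

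The smallest changes among the G2/M members were those of Aurka (-1.35 ± 0.09), which encodes a centrosomal kinase, and of Foxm1 (-1.66 ± 0.08), the transcription factor of this gene group. Foxm1 was at 22.3, 23.4, 34.3 and 34.8 CPM fresh and at 9.37, 7.36, 9.31 and 7.57 CPM cultured. The other G2/M members fell by 1.72 to 3.08 on the log2 scale, Bub1b and Ccnb1 being at the ends of that range. They include Ccnb2 (-2.94), the passenger complex genes Aurkb and Birc5 (-2.74 and -2.39), the kinetochore genes Cenpe and Cenpf (-2.02 and -2.76), Bub1 (-2.72), the spindle motor Kif11 (-2.09), its regulator Tpx2 (-2.45), Ccna2 (-2.53) and Cdc20 (-2.24).

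**Figure D2:**
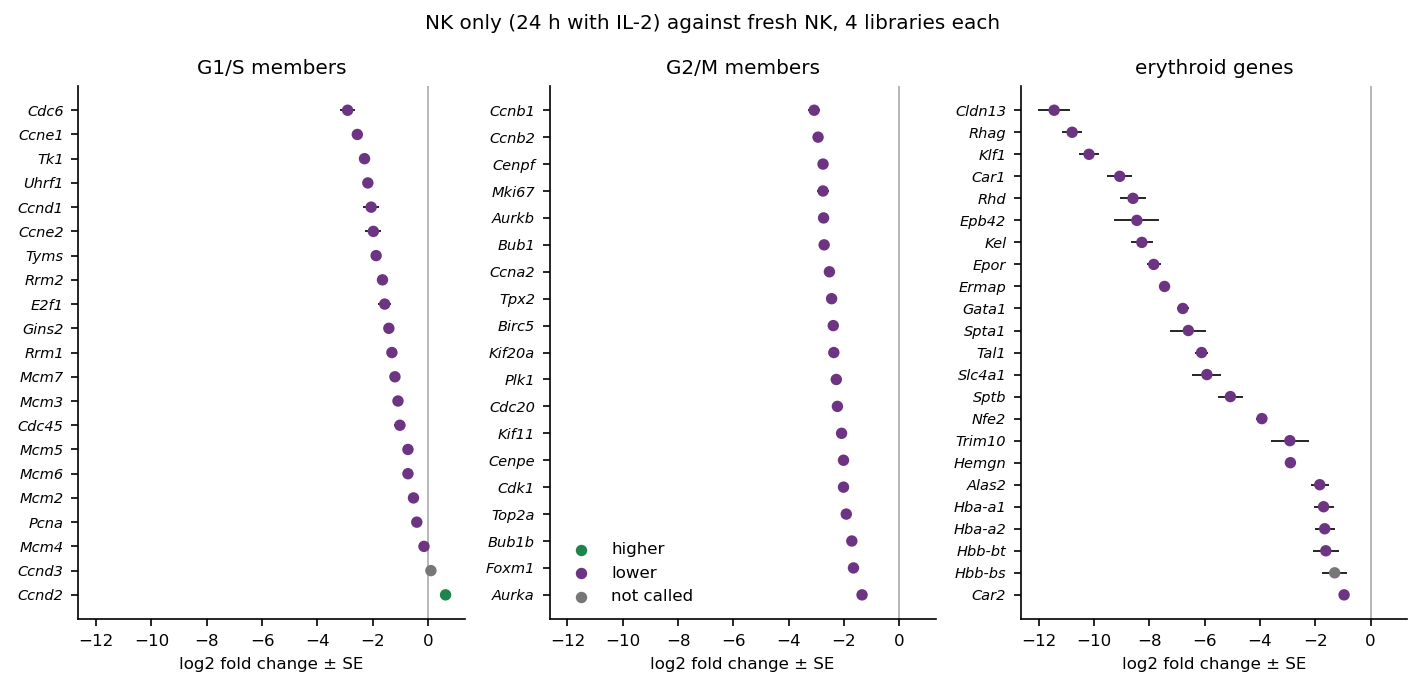
Log2 fold change of NK only against fresh NK cells (horizontal axis, with SE bars) for G1/S members, G2/M members and 23 of the 24 erythroid genes, from 4 libraries a side. Filled colours give the call. The 19 G2/M members lie between -3.08 and -1.35, G1/S members reach from -2.91 to 0.63, and erythroid genes reach -11.44.

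Within G1/S the genes for making nucleotides and the helicase loader gene Cdc6 had larger log2 changes than those of the helicase ring. This difference was not tested. Tk1, thymidine kinase, was at 27.8, 31.8, 31.0 and 32.5 CPM fresh and at 5.95, 4.90, 6.74 and 6.02 CPM cultured, a log2 change of -2.30 ± 0.08 (adjusted p = 6.3e-13, edgeR). Rrm2, the regulated subunit of ribonucleotide reductase, went from 49.1, 69.9, 95.8 and 91.3 CPM to 23.3, 16, 25.6 and 25.0 CPM (-1.65 ± 0.12). Its partner Rrm1 went from 193, 200, 234 and 227 CPM to 86.6, 72.5, 84.0 and 76.3 CPM (-1.31 ± 0.06). In each case the 2 conditions did not overlap. Tyms, thymidylate synthase, changed by -1.88. Cdc6 changed by -2.91, the most of any G1/S member, and Cdc45 and Gins2, which complete the active helicase, by -1.02 and -1.42. Uhrf1, which maintains DNA methylation behind the fork, changed by -2.18.

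The 6 genes of the MCM2-7 ring spanned -1.20 to -0.15. Mcm2 was at 133, 156, 188 and 193 CPM fresh and at 120, 97.1, 111 and 100.0 CPM cultured, a fold of only 1.44. Mcm5 was at 182, 213, 223 and 220 CPM and then at 138, 99.5, 118 and 114 CPM (1.66-fold). Mcm7 (-1.20), Mcm3 (-1.09) and Mcm6 (-0.73) also fell without overlap between the groups. Mcm4 had the weakest call of the 38, at -0.15 ± 0.05 (adjusted p = 0.0314, edgeR), its libraries overlapped, and it was not called without fresh female 2, fresh male 5 or NK only male 4, nor without any 1 of the 4 co-cultures that share the fit, with adjusted p of up to 0.134. Pcna was at 167, 215, 259 and 232 CPM fresh and at 155, 133, 160 and 159 CPM cultured (-0.41 ± 0.07). E2f1, the factor that drives many of these genes, went from 21.6, 20.4, 19.3 and 17.5 CPM to 8.27, 2.96, 8.64 and 6.40 CPM (-1.57 ± 0.24).

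The D-type cyclins did not move together. Ccnd2 (ENSMUSG00000000184, chromosome 6, 127102125 to 127129156) was at 671, 603, 655 and 648 CPM fresh and at 919, 945, 974 and 872 CPM cultured. All 4 cultured libraries were above all fresh libraries, and it was the only member that rose, by 0.63 ± 0.05 (adjusted p = 4.21e-08, edgeR). Ccnd3 (ENSMUSG00000034165, chromosome 17, 47815976 to 47910616) was at 405, 465, 481 and 454 CPM fresh and at 433, 451, 464 and 447 CPM cultured. These ranges overlap, and the difference of 0.10 ± 0.05 did not pass the test (adjusted p = 0.173, edgeR). Ccnd1 (ENSMUSG00000070348, chromosome 7, 144483668 to 144493662) was low in fresh cells, at 19.9, 13.8, 12.3 and 8.84 CPM, and fell to 1.37, 3.46, 2.34 and 4.29 CPM (-2.06 ± 0.28). Both E-type cyclins fell: Ccne1 went from 29.9, 30.3, 43.8 and 39.2 CPM to 7.39, 4.93, 5.37 and 5.16 CPM (-2.56 ± 0.11). Ccne2 went from 9.45, 13.3, 17.5 and 15.5 CPM to 5.27, 1.36, 3.79 and 3.40 CPM (-1.98 ± 0.29).

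Per kilobase of exon, the order of the D-type cyclins in NK cells was Ccnd2, Ccnd3, Ccnd1. In fresh cells the means were 68.5, 51.4 and 2.91 CPM per kb, and no library of Ccnd2 (64.0 to 71.3) reached the range of Ccnd3 (46.2 to 54.8). After culture the means were 98.6, 51.1 and 0.608 CPM per kb. Panc02 had the order Ccnd1, Ccnd2, Ccnd3, at 313, 45.6 and 11.1 CPM per kb. Allografts kept Ccnd1 first, at 82.3 CPM per kb, while Ccnd2 (9.47 to 15.9) and Ccnd3 (8.55 to 14.7) could not be ranked, since their ranges overlapped. Ccne1 was above Ccne2 in fresh cells (13.4 and 3.99 CPM per kb), and in Panc02 both stood at 13.7 CPM per kb.

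**Figure D3:**
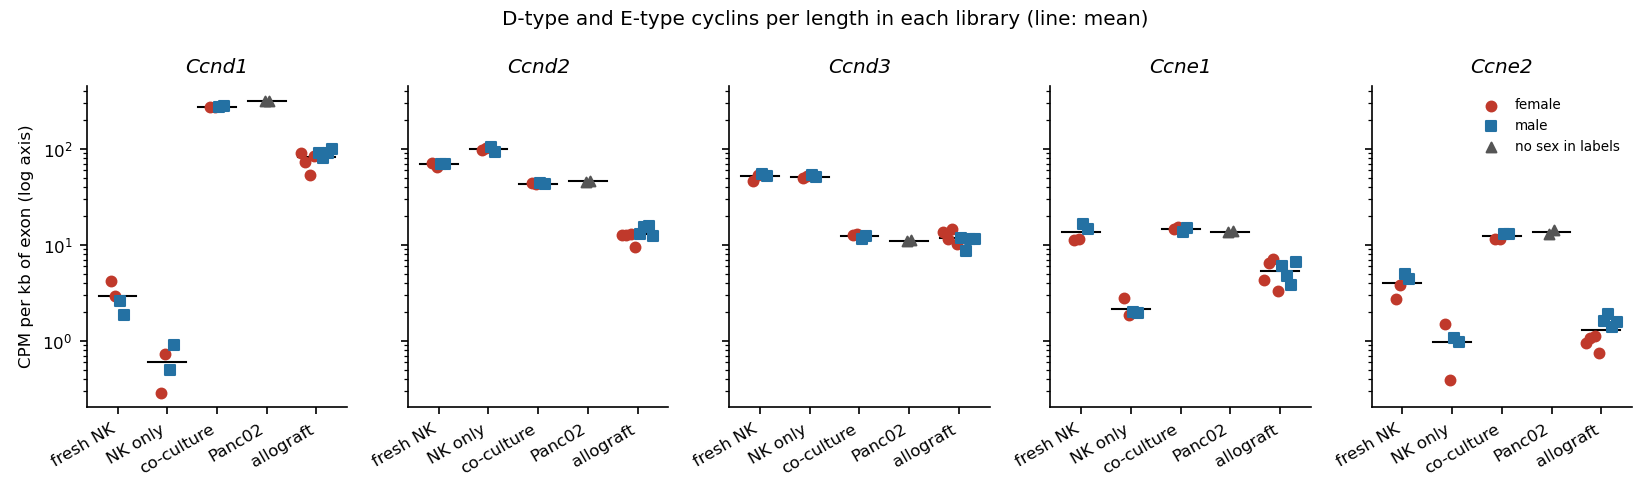
CPM per kb of exon (log axis) of the D-type and E-type cyclins in each library, with lines at the mean of a condition. Ccnd1 is at 1.88 to 4.22 in fresh cells and 312 to 315 in cultured Panc02, while Ccnd3 is at 46.2 to 54.8 and 11 to 11.1.

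Of 11 cell cycle inhibitor genes tested in NK only against fresh cells, 5 were higher, 1 was lower and 5 did not pass, beside a background of 22.1% of genes higher and 21.1% lower. Cdkn1a, which encodes the Cdk inhibitor p21, was at 8.92, 9.90, 9.45 and 8.90 CPM fresh and at 193, 167, 175 and 163 CPM cultured. That is a log2 change of 4.34 ± 0.07 (adjusted p = 9.85e-17, edgeR). The p27 gene Cdkn1b (0.51), the retinoblastoma gene Rb1 (0.77), its relative Rbl2 (0.32) and the antiproliferative gene Btg1 (0.60) rose by less than 1 on the log2 scale. Cdkn2d, the p19 inhibitor of Cdk4 and Cdk6, was the 1 that fell (-0.52). Cdkn1c (0.75, adjusted p = 0.138), Cdkn2b (-0.42, 0.679), Cdkn2c (0.14, 0.237), Rbl1 (-0.16, 0.0559) and Btg2 (0.00, 1) did not pass edgeR's test, and Cdkn2a was too low to test.

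Further genes of the same phases moved like the members, in lists drawn up by function but with earlier results of these data known. Of 30 other G1/S genes 29 fell and 0 rose, with a median of -1.02. The background was again 21.1% of genes lower and 22.1% higher. The exception was Slbp, the histone stem-loop binding protein (0.08, adjusted p = 0.223, edgeR). All 30 other G2/M genes fell, with a median of -2.21. The smallest p-values were those of Dut (-1.51 ± 0.07), which breaks down dUTP, and Cdc25a (-1.61 ± 0.08), a phosphatase that activates Cdk2, in the first list. In the second they were those of Anln (-2.62 ± 0.08), a scaffold of the cleavage furrow, and Ube2c (-2.91 ± 0.09), a ubiquitin carrier of the anaphase-promoting complex.

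Most erythroid genes fell over the same 24 h, many of them to near 0. Of 24 erythroid genes 23 fell, with a median log2 change of -6.35, and 15 of 24 changed by more than -4, a size that 0 of the 40 members reached. The erythroid sum, by contrast, was at 15% to 21.1% of its fresh mean, close to the 13.6% to 23.2% of the G2/M sum, and what remained was mainly Car2 (38.9% of the mean sum after culture) and globin RNA. No test of the difference between these lists was made. Klf1, the erythroid master regulator, was at 55.3, 74.7, 92.2 and 75.9 CPM in fresh cells. In the cultured libraries it was at 0.0684, 0.0, 0.217 and 0.0703 CPM. Rhag, of the red cell ammonium transporter, was at 15.2, 22, 46.9 and 54.4 CPM fresh and at 0.0, 0.0, 0.0866 and 0.0469 CPM cultured. Both are thus near 0 in every cultured library.

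Slc4a1, the anion exchanger of the red cell membrane, changed by -5.92. Haemoglobin RNA declined less: Hba-a1 went from 537, 368, 389 and 182 CPM to 130, 94.4, 123 and 67.1 CPM (-1.70 ± 0.36), and Hbb-bs, at -1.30 ± 0.45, did not pass (adjusted p = 0.0604, edgeR). Values of the globin paralogs are uncertain, since reads mapping to several genes were counted. Erythroid precursors are known to divide rapidly. Their genes moved in the same direction as the members, and their part in the members' fall was not tested. Megakaryocyte genes moved the same way, from 250 to 461 CPM in sum to 34.1 to 78.9 CPM. So did the dendritic list, from 468 to 631 CPM to 264 to 341 CPM, and the B and plasma cell list, from 35.4 to 105 CPM to 2.1 to 7.15 CPM. Neutrophil precursor genes did not all follow, at 24.9, 80.7, 186 and 518 CPM fresh and 25.4, 81.5, 75.0 and 433 CPM in NK only cells. RNA was taken with oligo(dT) beads from fresh cells and with TriZOL from cultures, and this cannot be told apart from culture. Epithelial markers of Panc02 stood at 0.405% to 0.788% of their Panc02 level in NK only libraries, where the G2/M sum was 3.65% to 6.19% and Ccnd1 0.0927% to 0.291% of theirs.

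Set beside a growing line, fresh NK cells were lower in 36 members, higher in 3, and did not pass in 1 (background 36.2% of 20243 genes lower and 38% higher). The G2/M sum of fresh cells was 21.8% to 31.9% of the Panc02 mean and the G1/S sum 52.8% to 62.2%. The largest difference was that of Ccnd1, at 8.84 to 19.9 CPM in fresh cells against 1467 and 1485 CPM in Panc02 (-6.84 ± 0.14). Cdk1 was at 269 and 267 CPM, Foxm1 at 187 and 181 CPM and Top2a at 898 and 923 CPM in Panc02, and their log2 differences were -2.96, -2.78 and -2.13. Tk1 was at 150 and 146 CPM in Panc02 (-2.34 ± 0.07). Mki67 differed by only 2.15-fold, with 632 and 627 CPM in Panc02.

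The 3 members that were higher in fresh NK cells were Ccnd3, Ccnd2 and Mcm6. Ccnd3 was at 96.6 and 97.4 CPM in Panc02, a log2 difference of 2.14 ± 0.07 (adjusted p = 1.01e-09, edgeR). Ccnd2 was at 428 and 430 CPM (0.52 ± 0.06). Mcm6 was at 293, 284, 303 and 294 CPM in fresh cells and at 215 and 220 CPM in Panc02 (0.36 ± 0.05). Ccne1 did not pass, at 36.0 and 36.8 CPM in Panc02 (-0.12 ± 0.08, adjusted p = 0.237, edgeR).

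In fresh NK cells 14 of the 40 members were lower in female than in male libraries and 0 were higher, against a background of 5.61% of genes lower and 4.42% higher. Of the 14, 9 were G2/M genes (Cdk1, Ccnb2, Ccna2, Plk1, Aurka, Bub1b, Cenpe, Kif20a and Foxm1) and 5 were G1/S genes (Ccne1, Rrm2, Pcna, Mcm2 and Mcm4). The count without adjustment, at p under 0.05, was 24 members lower and 0 higher, beside 5105 of all 21414 genes in either direction. DESeq2 called 17 members lower and 0 higher, and its share over all genes is not given here. Median log2 differences were -0.62 for G2/M and -0.26 for G1/S. In 31 members both female libraries were below both male libraries, and in 2, Ccnd1 and E2f1, they were above. The share of all genes ordered in these ways was not counted, so these counts have no background.

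Kif20a had the smallest p, with 26.4 and 32.0 CPM in female against 50.5 and 48.3 CPM in male libraries (-0.79 ± 0.09, adjusted p = 0.000251, edgeR). Bub1b was at 34.9 and 40.2 CPM against 61.1 and 59.1 CPM (-0.71 ± 0.09). Foxm1 was at 22.3 and 23.4 CPM against 34.3 and 34.8 CPM (-0.62 ± 0.11). In these genes, picked by p, female libraries were 1.53-fold to 1.73-fold lower without overlap. Over all G2/M members the difference ran from 1.12-fold (Top2a) to 1.87-fold (Ccnb1), and the libraries overlapped for Cdc20 and Cenpf. Among G1/S genes the smallest p-values were those of Mcm4, Mcm2 and Pcna. Mcm4 was at 133 and 144 CPM in female and at 180 and 188 CPM in male cells (-0.43 ± 0.07). Mcm2, at 133 and 156 against 188 and 193 CPM, gave the same log2 difference (-0.43 ± 0.09), and Pcna, at 167 and 215 against 259 and 232 CPM, gave -0.38 ± 0.10.

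Several members with differences of like size and larger standard errors did not pass edgeR's test. Ccnb1 had the largest difference, at 18.9 and 34.3 against 52.2 and 42.2 CPM (-0.90 ± 0.25, adjusted p = 0.0636). Mki67, at 274 and 263 against 356 and 353 CPM, gave -0.42 ± 0.26 (adjusted p = 0.403, edgeR). Ccnd1 was on the other side, at 19.9 and 13.8 against 12.3 and 8.84 CPM (0.72 ± 0.33, adjusted p = 0.249, edgeR). Of the other lists, 9 of 30 G1/S and 12 of 30 G2/M genes were lower in female cells and 0 were higher, led by Cdk2 (-0.73 ± 0.12) and Cdt1 (-0.48 ± 0.08), and by Racgap1 (-0.65 ± 0.08) and Ube2c (-0.80 ± 0.11). Of the inhibitors Rb1 and Rbl1 were lower, both by 0.38 on the log2 scale.

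Markers of other cells differed between the same libraries. Of 24 erythroid genes 5 were lower in female cells and 0 higher, among them Rhag (-1.48), Ermap (-0.58), Hemgn (-1.05) and Car2 (-0.92). Their whole list summed to 3086 and 2959 CPM in female and to 3854 and 2925 CPM in male cells, which overlap. Neutrophil precursor genes summed to 24.9 and 80.7 CPM against 186 and 518 CPM. The part of such cells in the difference of the members was not tested. The count of 14 depended on single libraries: it was 5 without fresh female 1, 8 without fresh male 4 and 9 without fresh male 5, and it was 25 and 31 without NK only female 1 and 2, which share the fit. Of the 14 calls, 5 held in every fit that left out a library, those of Bub1b, Cdk1, Foxm1, Kif20a and Mcm4.

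**Figure D4:**
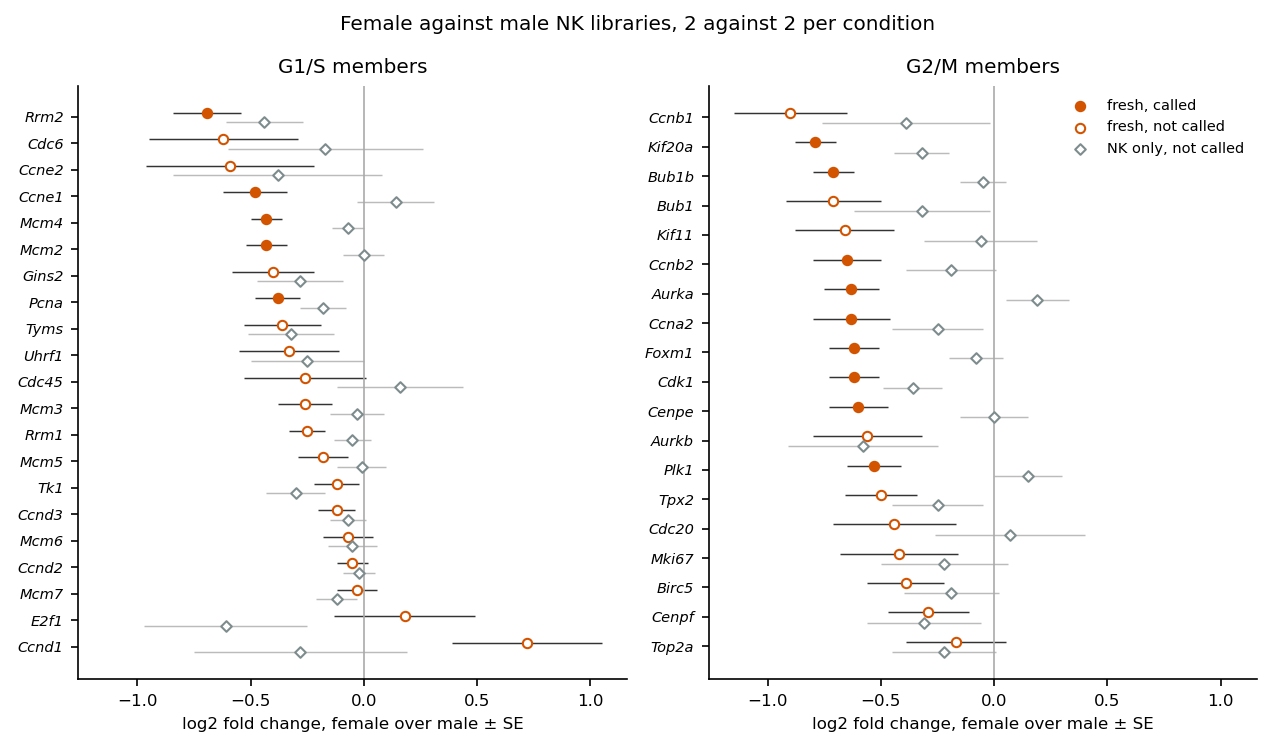
Log2 difference of female over male NK libraries (horizontal axis, with SE bars) for each member, in fresh cells (circles, filled where called) and in NK only cells (grey diamonds, none called), 2 libraries against 2 in each. In fresh cells all 19 G2/M members lie left of 0, from -0.90 for Ccnb1 to -0.17 for Top2a.

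After 24 h with IL-2 no member differed between the sexes by edgeR's test or by DESeq2. The background of adjusted edgeR calls was 0.0514% of genes lower and 0.056% higher. At an unadjusted p under 0.05 there were 4 members lower in female cells and 0 higher, beside 1468 of all 21414 genes in either direction. Cdk1 and Kif20a had the smallest p among G2/M genes (-0.36 ± 0.13 and -0.32 ± 0.12, adjusted p = 0.614 and 0.621, edgeR). Aurkb followed, at 6.02 and 2.38 CPM in female against 5.87 and 4.90 CPM in male libraries, which overlap (-0.58 ± 0.33, adjusted p = 0.793, edgeR). Among G1/S genes they were Rrm2 (-0.44 ± 0.17), Tk1 (-0.30 ± 0.13) and Pcna (-0.18 ± 0.10). NK only female 1 and female 2 were apart from each other, with G2/M sums of 284 and 167 CPM around the male values of 252 and 226 CPM. Without NK only female 1, 9 members were lower in female cells.

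The change between the sexes was tested directly as the female response to culture minus the male response. It was above 0 in 2 members by edgeR, Bub1b (0.66 ± 0.13, adjusted p = 0.016) and Aurka (0.82 ± 0.19, adjusted p = 0.0305), and below 0 in none. The background of adjusted edgeR calls was 1% of genes above and 1.55% below. The unadjusted count was 9 members above and 0 below, beside 3548 of all 21414 genes in either direction. DESeq2 gave 9 members above and 0 below, again without its share over all genes. Aurka was at 14.9, 21, 27.5 and 25.8 CPM fresh and at 9.23, 8.02, 7.47 and 7.10 CPM cultured, so female libraries were below male ones when fresh and above them, by little, after culture. Plk1 (0.68 ± 0.19, adjusted p = 0.0665, edgeR), Mcm4 (0.36 ± 0.11, 0.0813), Mcm2 (0.43 ± 0.13, 0.0946) and Ccne1 (0.62 ± 0.22, 0.156) had the next smallest p of their phases and did not pass. Neither call held without fresh female 1. The count ranged from 0 to 13 when a library was left out: 0 without fresh female 1, 5 without fresh female 2, 1 without fresh male 4 or 5, 1 without NK only female 1, 13 without NK only female 2, and 4 and 1 without NK only male 4 and 5.

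Against NK only cells the co-cultures were higher in 38 members and lower in 2 (background 36.4% of genes higher and 38.6% lower), a comparison that sets mainly Panc02 RNA against NK RNA. Kif20a was at 204, 202, 205 and 202 CPM in co-culture (log2 difference 5.00 ± 0.08), Cdk1 at 246, 260, 276 and 269 CPM (5.08 ± 0.09) and Foxm1 at 169, 160, 172 and 173 CPM (4.45 ± 0.08). Tk1 stood at 153, 150, 141 and 150 CPM (4.78 ± 0.08) and Rrm1 at 314, 331, 337 and 329 CPM (2.14 ± 0.06). The lower members were the D-type cyclins of NK cells. Ccnd2 was at 413, 402, 410 and 401 CPM (-1.09 ± 0.05) and Ccnd3 at 110, 114, 101 and 108 CPM (-1.95 ± 0.06).

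The comparison closer to the tumour cells is that with cultured Panc02, and there 35 of the 40 members did not pass the test. Of G2/M members 0 of 19 differed. Among G1/S members 4 were higher and 1 was lower (background 12.2% of 18172 genes higher and 6.12% lower). Over all members the unadjusted count was 6 higher and 4 lower, beside 5521 of all 18172 genes in either direction. DESeq2 called 2 members higher and 1 lower, also without its share over all genes. Ccnd1 was at 1288, 1268, 1268 and 1302 CPM in co-culture and at 1467 and 1485 CPM in Panc02, below in every library (-0.15 ± 0.03, adjusted p = 0.000717, edgeR). It was called in every fit that left out a library. Ccnd3 was higher by 0.21 ± 0.05 (adjusted p = 0.00256, edgeR) beside NK only levels of 433 to 464 CPM.

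The remaining calls were small. Pcna was at 359, 369, 368 and 362 CPM against 342 and 349 CPM (0.13 ± 0.03). Mcm5, at 273, 273, 269 and 268 against 262 and 263 CPM (0.10 ± 0.03), and Mcm7, at 288, 304, 305 and 291 against 291 and 278 CPM (0.12 ± 0.04), had adjusted p of 0.0472 and 0.0372 by edgeR. The 4 higher calls depended on the libraries: 0 held without Panc02 1, 1 without Panc02 2, and 2 without co-culture female 2 or male 4. With scaling to total counts alone, 1 member was higher (Ccnd3) and 5 were lower (Ccnd1 and, of G2/M, Bub1b, Cdc20, Foxm1 and Birc5).

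Among G2/M members the smallest p-values were those of Cdc20, at 170, 167, 167 and 173 against 185 and 193 CPM (-0.10 ± 0.04, adjusted p = 0.0635, edgeR), Bub1b, at 119, 121, 126 and 126 against 138 and 137 CPM (-0.11 ± 0.04), and Birc5, at 142, 148, 145 and 146 against 166 and 155 CPM (-0.09 ± 0.04). Mki67, at 601, 640, 666 and 604 CPM against 632 and 627 CPM, gave 0.05 ± 0.04. Of the other lists 4 G1/S genes were higher, led by Cdk6 (0.17 ± 0.04) and Dut (0.13 ± 0.03), and 1, E2f8, was lower (-0.30 ± 0.04). Of the other G2/M genes 2 were higher, Smc4 (0.15) and Ndc80 (0.18), and 2 were lower, Cenpa (-0.17) and Espl1 (-0.13). The inhibitors Btg1, Btg2 and Rbl2 were higher (0.35 ± 0.04, 0.38 ± 0.07 and 0.25 ± 0.06), and all 3 had higher levels in NK cells than in Panc02.

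Co-cultures with female and with male NK cells did not differ in any member by edgeR or DESeq2, against a background of 0.985% of genes higher and 0.154% lower. At an unadjusted p under 0.05 there were 10 members lower with female cells and 0 higher, beside 2119 of all 18172 genes in either direction. The smallest p-values were those of Bub1, at 94.3 and 103 against 117 and 106 CPM (-0.20 ± 0.06, adjusted p = 0.144, edgeR), Cdk1 (-0.14 ± 0.04, 0.154) and Ccna2 (-0.11 ± 0.04, 0.277). For G1/S they were those of Ccne2, at 40.4 and 40.4 against 45.3 and 45.1 CPM (-0.19 ± 0.07), Tyms (-0.12 ± 0.05) and Rrm1 (-0.07 ± 0.04).

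In allografts 38 of the 40 members were lower than in cultured Panc02 and 0 were higher. The background was 23.3% of 23264 genes lower and 38.8% higher, with a median log2 change of 0.42 over all genes tested. All 19 G2/M members were lower, with a median of -1.88, and 19 of 21 G1/S members, with a median of -1.32. The 2 that did not pass edgeR's test were Ccnd3 (0.13 ± 0.15, adjusted p = 0.463), at 75.0, 101 and 129 CPM (lowest, median and highest of 8 tumours, as below), and Gins2 (-0.01 ± 0.22, 0.964), at 15.2, 24.1 and 26.0 CPM.

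Ccne2 was the member that differed most, at 2.63, 4.42 and 6.73 CPM against 45.8 and 49.8 CPM in culture (-3.38 ± 0.15, adjusted p = 6.53e-08, edgeR). Ccne1, at 8.84, 14.4 and 19 CPM, differed less (-1.30 ± 0.25). Ccnd2 was at 89.1, 120 and 149 CPM (-1.75 ± 0.12) and Ccnd1 at 252, 407 and 464 CPM (-1.87 ± 0.17). Cdc6 was at 13.8, 17.2 and 22.2 CPM against 68.2 and 71.4 CPM (-1.87 ± 0.16). The tumours thus lay wholly below culture for both E-type cyclins, 2 of the 3 D-type cyclins and the helicase loader.

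Among G2/M members Bub1 differed most, at 8.24, 15.7 and 26.1 CPM against 107 and 117 CPM (-2.70 ± 0.20). Mki67 was at 51.5, 129 and 196 CPM (-2.25 ± 0.24) and Ccnb1 at 28.8, 42.7 and 56.2 CPM against 188 and 194 CPM (-2.09 ± 0.15). Top2a was at 158, 213 and 363 CPM (-1.89 ± 0.15), Cdk1 at 57.7, 94.6 and 132 CPM (-1.41 ± 0.21), Plk1 at 32.8, 54.2 and 73.2 CPM (-1.88 ± 0.20) and Foxm1 at 40.8, 59.8 and 76.4 CPM (-1.56 ± 0.17). No tumour reached the cultured level of any G2/M member.

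Among replication genes Rrm2 had the largest difference. Mcm2 was at 57.3, 75.1 and 86.4 CPM against 219 and 216 CPM (-1.51 ± 0.15), and Mcm5 at 56.7, 88.0 and 109 CPM (-1.56 ± 0.21). Pcna was at 103, 139 and 168 CPM (-1.24 ± 0.15), Rrm2 at 58.8, 114 and 165 CPM against 561 and 592 CPM (-2.30 ± 0.23), and Tk1 at 44.0, 70.9 and 81.1 CPM (-1.07 ± 0.18). E2f1, at 25.5, 37.0 and 45.2 CPM against 58.6 and 56.6 CPM (-0.62 ± 0.16, adjusted p = 0.00579, edgeR), was the 1 call lost without Panc02 1 (adjusted p = 0.0532, edgeR).

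**Figure D5:**
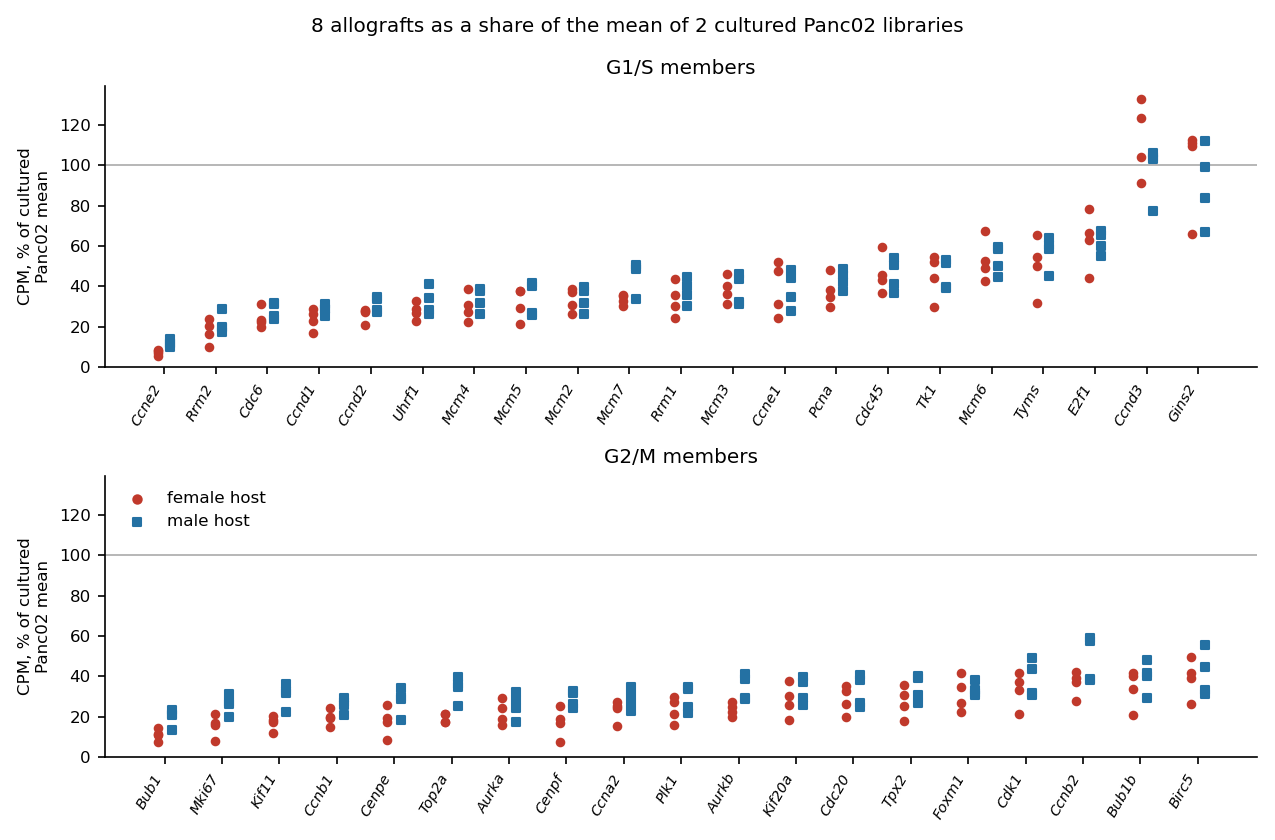
CPM of each member in the 8 allografts as a percentage of the mean of the 2 cultured Panc02 libraries (vertical axes from 0, grey line at 100%), ordered by the median. Red circles are tumours from female hosts and blue squares from male hosts. Ccnd3 and Gins2 lie around the line, and all G2/M members lie below it in every tumour.

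Markers of the tumour cells were lower in the allografts as well. The 6 epithelial markers of Panc02 summed to 15.5% to 41.2% of their cultured level in the allografts, with 5 of 6 lower and a median log2 change of -1.36. The G1/S sum was 26.4% to 39.7% and the G2/M sum 16% to 37.4% of the cultured level. The part of host cells in the members' difference was not tested. With tumours 2, 4 and 7 left out, which had the highest muscle levels (an alternative chosen after the data were seen), 38 members were lower and 0 higher. Inhibitors were split. Btg1 (0.53 ± 0.14), Btg2 (0.83 ± 0.18), Cdkn2a, Cdkn2b and Cdkn1c were higher, and Cdkn1a (-0.72 ± 0.24), Cdkn1b (-0.62), Cdkn2c (-0.54) and Rbl1 (-1.67) were lower. Cdkn2a was at 2.19 to 10.9 CPM in tumours against 0.342 and 0.119 CPM in culture, and Cdkn1c, at 2.26 to 13.7 CPM in tumours, had 0 counts in both cultured libraries. Rb1 (0.31), Rbl2 (0.28) and Cdkn2d (0.19) did not pass. Of the other lists 27 of 30 G1/S and 30 of 30 G2/M genes were lower and 0 higher, led by E2f8 (-2.42 ± 0.16) and Dbf4 (-2.06 ± 0.15), and by Ect2 (-3.01 ± 0.16) and Anln (-2.57 ± 0.14).

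Host sex gave no call among the members by edgeR, where the background was 0.0146% of 20560 genes lower in female hosts and 0% higher. At an unadjusted p under 0.05 there were 9 members lower and 0 higher, beside 3087 of all 20560 genes in either direction. DESeq2 called 2 members lower, Top2a and Kif11, and 0 higher, without its share over all genes. The median log2 difference was -0.29 for G2/M and -0.13 for G1/S members. In 4 members all tumours from female hosts were below all from male hosts, a count for which the share over all genes was not taken. Top2a was at 195, 193, 158 and 160 CPM in tumours 1 to 4 and at 318, 331, 231 and 363 CPM in tumours 5 to 8 (-0.78 ± 0.15, adjusted p = 0.19, edgeR). Kif11 was at 42.0, 37.9, 35.8 and 24.4 CPM against 67.7, 65.3, 46.4 and 74.4 CPM (-0.82 ± 0.19). Aurkb (-0.52 ± 0.15) and Ccne2 (-0.70 ± 0.21) were the others.

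Bub1, at 12.2, 16.3, 12.6 and 8.24 CPM against 23.9, 23.2, 15 and 26.1 CPM, had a difference of the same size with overlap (-0.80 ± 0.23). The next G1/S members by p were Mcm7 (-0.40 ± 0.14, adjusted p = 0.249, edgeR) and Ccnd3, which lay the other way (0.25 ± 0.15, adjusted p = 0.448, edgeR). Ccnd3 was at 120, 101, 129 and 88.5 CPM in tumours 1 to 4 and at 103, 75.0, 101 and 100.0 CPM in tumours 5 to 8, with overlap. Tumours of the same host sex varied widely. Across the 8 tumours the highest level of a G2/M member was 1.87 to 4.42 times its lowest, with a median of 2.25, and that of a G1/S member 1.47 to 2.80 times, with a median of 1.74. Tumour 4 had the lowest value of 35 of the 40 members and tumour 8 the highest of 17. Tumour 4 also had the highest muscle sum, 29496 CPM, and its part in these low values was not tested.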

How the data were processed

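The deposited values are raw read counts per gene in 22 libraries of polyadenylated mouse RNA. For the build GRCm39 the submitters' processing notes list featureCounts 2.0.6, HISAT2 2.2.1, cutadapt 4.4 and SAMtools 1.19.2. Per the file headers, the authors counted exon reads of Ensembl release 113 genes with strand setting 2, each mate of a pair on its own, and multi-mapping reads included, so values of genes with near-identical copies are uncertain. Of genes with 1 to 20 counts in a library, 66.36% to 78.61% had an even count, so reads are not independent and precision is lower than counts imply. The allografts were counted in a separate table from the other libraries, and only the comparison of allografts with cultured Panc02 crosses tables.

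Libraries were grouped by their labels. Differences were tested on the counts with edgeR 4.0.16 (filterByExpr, TMM, robust quasi-likelihood F-test, R 4.3.3), with Benjamini-Hochberg adjustment over all genes tested, called at 0.05. The 12 NK and co-culture libraries shared a fit of 6 group means (6 residual degrees of freedom). SE is the log2 fold change over the square root of F. CPM uses total gene counts, and CPM per kb the deposited exon length. On simulated data for NK only against fresh, 100% of genes changed by a log2 fold of -2, -1, 1 or 2 were recovered among 19483 genes. The changed genes were drawn from well-expressed ones, all genes had the same spread, and co-cultures were simulated like fresh cells. Recovery of smaller changes, or in noisier or weakly expressed genes, was thus not measured. No libraries of a group were alike within counting error. Alternatives were other scalings, no filter, DESeq2 1.42.0, a replicate block, fits on the compared groups alone, and leaving out each library.

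The members, gene lists, tests and alternatives were chosen with earlier results of these data known. Named genes are 17 fixed members, the 3 of each phase with the smallest p in a comparison, members going against their phase, the 2 smallest p of other cell cycle lists in each direction, all inhibitors and 5 erythroid genes, 1 of which is not reported here. Gene symbols came from the reference table, which matched 51498 gene IDs.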

Additional observations from a re-analysis of the deposited data

Results flagged for a closer look

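The 40 members in each host sex gave 80 sets of 4 allografts, each tested for an outlying tumour. In 4 sets a tumour was apart from the rest of its group, no more than the roughly 1 in 20 that chance gives. Gins2 was at 15.2 CPM in tumour 4, against 25.3 to 26.0 CPM in the other tumours from female hosts, and Ccnd2 was at 89.1 CPM there, against 118 to 122 CPM. In male hosts Ccnd3 was at 75.0 CPM in tumour 6, against 100.0 to 103 CPM in the others, and Mcm7 was at 95.8 CPM in tumour 7, against 138 to 144 CPM. Tumours 4 and 7 had the highest skeletal muscle sums of their host sex, 29496 and 8432 CPM, while tumour 6 had the lowest of all tumours, 599 CPM. The part of muscle in these values was not tested.

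The response of NK cells to 24 h of culture differed between the sexes in 2 members by edgeR's interaction test, Aurka (female minus male 0.82 on the log2 scale) and Bub1b (0.66). The background was 1% of genes above and 1.55% below. Of these 2 calls, 0 held in every fit that left out a library.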

How the results depend on the processing

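For single members, 5663 of 5840 values under an alternative kept their side of the threshold, 69 lost a call and 108 gained a call. Among values called in the main fit or in the alternative, 0 reversed direction. Direction was not compared for values called in neither. The count of members lower in NK only cells was 37 or 38 in every setting run. In fresh cells the count lower in female libraries was 29 with no filter and 5 to 31 when a library was left out. In NK only cells it was 3 with no filter (E2f1, Aurkb and Rrm2) and 0 to 9 when a library was left out. The count of members whose response was higher in female cells was 4 with median-ratio size factors, 9 with DESeq2, 7 with no filter, 0 with the compared groups alone and 0 to 13 when a library was left out, and that of lower responses was 0 to 2. Against Panc02, members higher in co-culture were 1 with total counts, 2 with DESeq2 and 0 to 5 when a library was left out, and lower members were 2 with median-ratio size factors and 5 with total counts. With no filter 1 member, Bub1, was lower in co-cultures with female cells, and DESeq2 called 2 lower in tumours of female hosts. The causes were not tested, and the shares of all genes called under these settings are not given here.

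The replicate block, which treats equal sample numbers as pairs, left 38 members lower and 1 higher in NK only cells, with 4381 and 4233 genes higher and lower over all, and 2 members higher in the response of female cells. Deviations of equal numbers correlated at 0.01 (female) and 0.07 (male) between fresh and NK only cells. Correlations with co-cultures, 0.00 to 0.02, cannot show a shared donor well, since co-cultures are mostly Panc02 RNA. The numbers were not taken as pairs, and whether they mark pairs is not known. Limits are the 2 libraries per NK group, the spread shared with the co-cultures, which are mostly Panc02 RNA, and the confounding of RNA extraction with culture.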
